A study of Mus musculus with 16 samples.

Results

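The 35 genes described here are markers of endothelial cells, the cells that line blood vessels, followed through the E11.5 mouse kidney (embryonic day). They were given as a list of symbols. Each gene was read through the probe set that carries its symbol alone and has the highest mean log2 signal over all 16 arrays. All 35 had such a probe set, out of 18193 genes that could be read this way. Transcript levels were measured in the ureteric bud (UB), the epithelial tube that branches into the collecting ducts, and in the metanephric mesenchyme (MM) around it, which forms the nephrons and the stroma. The series asked which genes mark bud or mesenchyme, and which genes of the mesenchyme Hoxa11 and Hoxd11 might control.

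The samples form 4 groups. Wild-type UB was dissected by hand in 4 samples, each a pool of 3 to 9 buds, and wild-type MM was dissected by hand in 3 samples from individual mesenchymes (replicates 5 to 7). Kidney rudiments up to the T-shaped stage were treated with collagenase at 0.5 mg/ml before both dissections. A further 4 wild-type MM samples, each pooled from 3 to 4 mesenchymes, were cut by laser capture out of 7 µm frozen sections of kidney rudiments. The last group holds 5 laser-captured samples of MM from embryos null for both Hoxa11 and Hoxd11, taken from 7 µm sections of urogenital ridges. The null and wild-type captures therefore differ in source piece and in the pooling the labels state as well as in genotype, and these cannot be told apart. The series text describes replicates as separate embryos; strain and litter were not analysed here. RNA was amplified in 2 rounds and read on Affymetrix MOE430_v2 arrays, 1 per sample.

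Endothelial cells reach the kidney rudiment from surrounding vessels and from precursors within the mesenchyme. Vascular endothelial growth factor A acts on them through the receptor tyrosine kinases encoded by Kdr and Flt1, and the angiopoietins act through Tek. Their identity is kept by ETS family transcription factors such as Erg, Fli1 and Ets1, by SOX factors of the F group (Sox7, Sox17 and Sox18), and early on by Tal1 with its partner Lmo2. Adherens junctions built on VE-cadherin (Cdh5) and tight junctions with claudin-5 (Cldn5) hold the cells together. The ureteric bud is an avascular epithelium, while the mesenchyme is threaded by capillaries.

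The labels were first set against known markers. Hoxa11 lay at 91.8 to 197 in the null captures and at 526 to 840 in the wild-type captures. Hoxd11 lay at 192 to 482 against 318 to 587, so its ranges overlapped. Calb1, a marker of the bud, lay at 55388 to 68976 in UB and at 124 to 172 in hand-dissected MM. In captured MM it lay at 3731 to 27963 in wild type and at 79.4 to 6880 in the null. Gapdh, read as the ratio of its 3' to its 5' control probe set, a measure of RNA truncation, ranged from 6.53 to 12.23 in UB, 22.09 to 69.33 in hand-dissected MM, 14.27 to 22.86 in wild-type captures and 18.4 to 26.27 in null captures. The same ratio for Actb ranged from 10.92 to 16.25 in UB and from 11.08 to 17.87 in hand-dissected MM. These ranges overlapped, unlike those of Gapdh. For Actb it was 14.79 to 20.85 in wild-type captures and 17.54 to 27.6 in null captures. The part of RNA truncation, bud tissue and total signal in the results below was not tested.

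One array stood apart for these genes. Among the 4 wild-type captures, replicate 1 was the lowest for 34 of the 35 endothelial genes, against 27.2% of all genes tested. The median endothelial gene was lower there than in replicates 2 to 4 by a log2 difference of -1.66, while the median of all tested genes differed by 0.01. For the 35 genes, the counts that passed and the median differences resting on the wild-type captures are therefore given with and without replicate 1. So are, in the comparison with the null, the single genes that it moved by more than 1.5 times. That array was picked for its low values of these genes, so leaving it out raises the wild-type mean of 34 of them by construction. Results without it are therefore no separate evidence. Arrays of tissue hold several cell types, so fewer endothelial cells and less RNA per endothelial cell cannot be told apart anywhere below.

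Start sites on the mouse assembly GRCm38.p6 were available from RefSeq for 18 of the 35 genes, in 24 windows that run from 250 bases before to 50 bases after a start. The core letters of an ETS site, AGGAAG on either strand, occurred in 12 of these 24 windows and in 11 of the 18 genes. Of all 32851 windows of this length, 35.4% held them. The longer ETS form CCGGAAG was in 0 of the 24 windows and in 8.86% of all. SOX letters were in 3 windows as ACAAAG (12.5% against 18.7% of all) and in 6 as ACAAT, which 31.0% of all windows held. GATA letters, AGATAA, were in 3 windows (12.5% against 11.2%), and the E-box CANNTG, in which N is any base, was in 16 (66.7% against 72.3%). These are letter matches in short windows and no measure of binding.

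The windows of 4 genes are printed because these genes were lower in UB than in hand-dissected MM in the test below, have a single window and hold AGGAAG; they are the ones with the largest such differences. They encode the surface sialomucins CD34 and endomucin, the adhesion receptor ADGRL4 and the VEGF receptor FLT1. Each sequence is 300 bases long, runs 5' to 3' on the strand of the gene, and has AGGAAG or its reverse complement in capitals.
Cd34, chr1:194938571-194938870, plus strand: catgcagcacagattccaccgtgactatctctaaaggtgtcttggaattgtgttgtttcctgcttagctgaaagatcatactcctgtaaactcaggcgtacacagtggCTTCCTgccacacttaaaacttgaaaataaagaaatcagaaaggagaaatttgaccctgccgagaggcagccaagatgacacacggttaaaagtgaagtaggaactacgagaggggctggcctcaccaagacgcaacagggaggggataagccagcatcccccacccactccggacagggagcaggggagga
Adgrl4, chr3:151437632-151437931, plus strand: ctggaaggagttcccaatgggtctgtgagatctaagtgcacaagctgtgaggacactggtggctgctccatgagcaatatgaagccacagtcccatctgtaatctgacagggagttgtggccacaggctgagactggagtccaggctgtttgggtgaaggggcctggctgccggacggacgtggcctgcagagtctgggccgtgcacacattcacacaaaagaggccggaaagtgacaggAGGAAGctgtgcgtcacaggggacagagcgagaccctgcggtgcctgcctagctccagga
Emcn, chr3:137340828-137341127, plus strand: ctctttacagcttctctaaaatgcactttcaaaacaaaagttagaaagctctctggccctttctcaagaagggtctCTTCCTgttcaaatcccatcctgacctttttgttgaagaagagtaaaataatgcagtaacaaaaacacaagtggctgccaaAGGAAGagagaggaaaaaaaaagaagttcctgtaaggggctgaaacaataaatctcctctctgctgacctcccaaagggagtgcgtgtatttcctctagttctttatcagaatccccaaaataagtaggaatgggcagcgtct
Flt1, chr5:147725962-147726261, minus strand: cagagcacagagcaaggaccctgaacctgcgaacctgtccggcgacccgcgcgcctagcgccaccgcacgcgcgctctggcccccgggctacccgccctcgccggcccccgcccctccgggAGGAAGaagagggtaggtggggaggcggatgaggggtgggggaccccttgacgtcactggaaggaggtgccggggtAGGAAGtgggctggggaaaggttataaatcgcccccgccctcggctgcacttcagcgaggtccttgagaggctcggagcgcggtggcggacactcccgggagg
The match in Adgrl4 begins 10 bases before the start, and the single match in Cd34 begins 142 bases before it on the opposite strand. Those in Flt1 begin 129 and 53 bases before the start. Emcn carries a match on each strand, 174 and 93 bases before its start.

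The endothelial genes were lowest in UB and highest in hand-dissected MM and in 3 of the 4 wild-type captures, and the mean of the null captures was in between. Their mean log2 level, taken as log2(signal + 36.3) and averaged over the 35 genes, was 8.45 ± 0.48 in UB (SD, n = 4), 10.12 ± 0.28 in hand-dissected MM (n = 3), 10.51 ± 0.91 in wild-type captures (n = 4) and 9.46 ± 0.49 in null captures (n = 5). By array, UB replicates 1 to 4 read 8.11, 8.07, 8.52 and 9.10. Hand-dissected MM replicates 5 to 7 read 9.82, 10.15 and 10.38. Every hand-dissected MM array was thus above every UB array. The wild-type captures read 9.19, 10.67, 11.14 and 11.05, and the null captures 9.05, 9.89, 8.92, 10.03 and 9.43. Captures 2 to 4 of the wild type were above all 5 null captures, and wild-type replicate 1 was within the null range. For 31 of the 35 genes UB had the lowest group mean, and for 23 the wild-type captures had the highest. The null mean lay between UB and hand-dissected MM for 27 genes and at or above hand-dissected MM for 6.

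**Figure D1:**
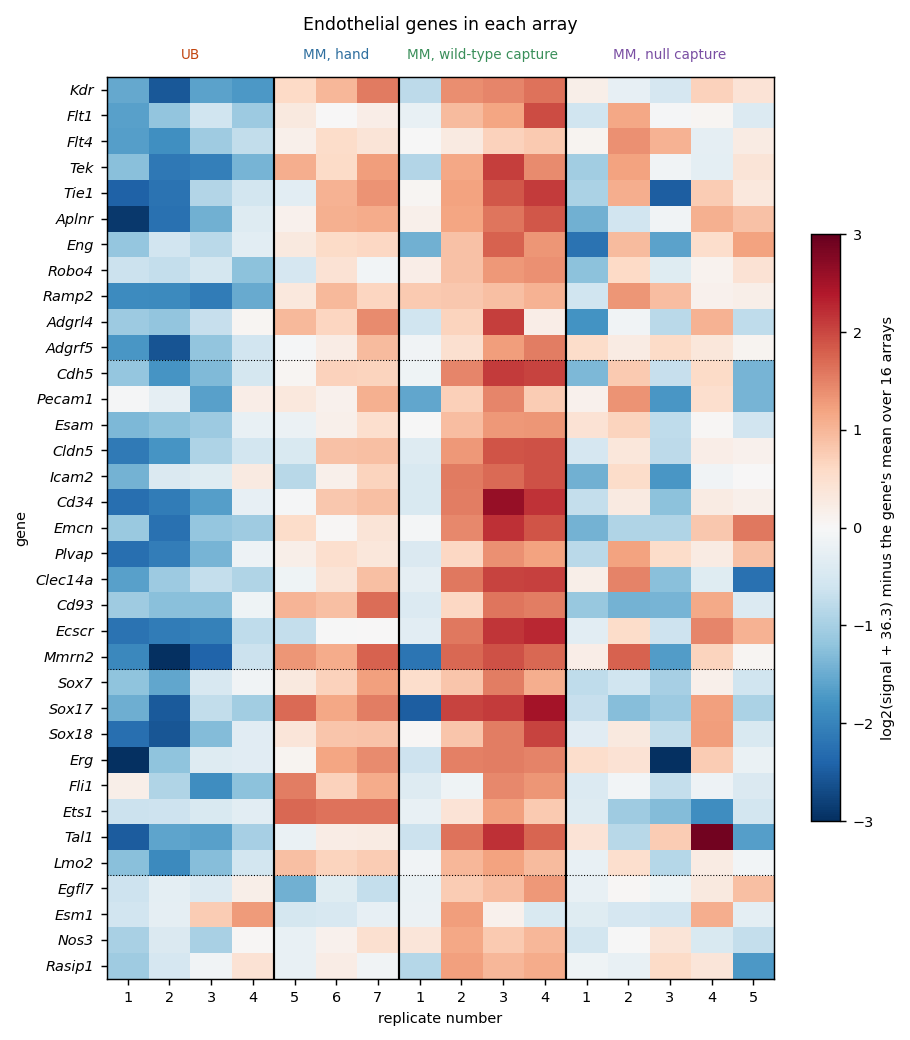
Each of the 35 endothelial genes (rows, by role: receptors, junction and surface proteins, transcription factors, others) in each of the 16 arrays (columns, by group, with replicate numbers), as log2(signal + 36.3) minus the gene's mean over all arrays, with colours clipped at 3 either way. UB is mostly blue, hand-dissected MM and wild-type captures 2 to 4 mostly red, and wild-type capture 1 has the lowest value of its group for 34 genes.

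In UB against hand-dissected MM, which contrasts bud and mesenchyme after the same dissection but with UB pooled and MM not, 27 of the 35 endothelial genes were lower in UB and 0 were higher (limma, adjusted p under 0.05). Of all genes tested, 14.6% were lower and 13.9% higher, or 11.9% and 18.8% after each array was centred on its median. Of the 35 genes, 31 passed the filter on low signals. The median log2 difference over all 35 was -1.77, against -0.06 over all genes, and 33 of 35 differences were below 0. Arrays of the groups did not overlap for 29 of the 35, with every UB array the lower, as for 18.8% of genes tested.

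Among the receptors, Kdr, the main signalling receptor for VEGF-A, had UB signals of 520, 240, 497 and 458 and hand-dissected MM signals of 2403, 3207 and 4712. The groups were far apart, with a mean of 428 ± 128 (SD, n = 4) against 3441 ± 1172 (n = 3), or 8.03-fold, and a log2 difference of -2.90 ± 0.31 SE (limma adjusted p = 2.99e-05). Flt1, a VEGF receptor that also acts as a decoy, read 27.8, 51.3, 95.3 and 57.7 in UB and 210, 164 and 193 in hand-dissected MM, a difference of -1.30 ± 0.32 SE. Its other probe sets differed by -1.28, which passed (limma adjusted p = 0.0139), by -0.52, which did not (limma adjusted p = 0.206), and by -1.56, not tested. Flt1 was below the median of all 4 UB arrays and entered the test only through the MM arrays, the single one of the 27 lower genes to do so. Flt4, the receptor for VEGF-C and VEGF-D, read 338, 295, 527 and 667 against 1270, 1684 and 1506, a difference of -1.69 ± 0.29 SE. In neither gene did the groups overlap.

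Tek, the angiopoietin receptor, read 466, 233, 250 and 417 in UB and 2482, 1746 and 2782 in MM, 6.85-fold higher in MM (log2 difference -2.68 ± 0.29 SE). Its relative Tie1 was too dim to be tested: UB arrays read 4.9, 11.7, 84.3 and 114, and MM arrays 141, 419 and 530. The Tie1 arrays did not overlap, and its difference was -2.21. Aplnr, the apelin receptor, read 1804, 2868, 4983 and 10371 in UB and 14867, 28358 and 29707 in MM. Its difference was -2.51 ± 0.48 SE (limma adjusted p = 0.00247), and the highest UB array, replicate 4, was below the lowest MM array.

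Eng, the TGF-beta co-receptor endoglin, read 211, 331, 276 and 406 against 634, 783 and 802, a difference of -1.21 ± 0.25 SE. Its other probe set differed by -0.31 and did not pass (limma adjusted p = 0.364). Ramp2, which turns the calcitonin-receptor-like receptor into a receptor for adrenomedullin, read 1345, 1333, 1169 and 1762 in UB and 6331, 10064 and 8020 in MM (-2.50 ± 0.23 SE, limma adjusted p = 1.02e-05). In none of these did the arrays overlap. Adgrl4, an adhesion G-protein-coupled receptor, read 74.8, 67.6, 111 and 212 in UB and 432, 335 and 594 in MM (-1.74 ± 0.34 SE). Its relative Adgrf5 read 632, 332, 937 and 1455 against 2146, 2550 and 4251 (-1.90 ± 0.42 SE). Robo4, an endothelial receptor of the Roundabout family, had UB arrays of 95.1 to 175 just below MM arrays of 182 to 376. Its difference of -0.73 ± 0.30 SE did not pass (limma adjusted p = 0.104).

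The junction and surface proteins followed. Cdh5, which encodes VE-cadherin, read 343, 214, 301 and 548 in UB and 854, 1329 and 1303 in MM, a difference of -1.67 ± 0.30 SE (limma adjusted p = 0.00168). Cldn5, the endothelial claudin, read 320, 425, 787 and 1023 against 1092, 2817 and 2872 (-1.78 ± 0.42 SE), so that UB replicate 4 came close to the lowest MM array. Cd34 read 318, 360, 508 and 1410 in UB and 1622, 2922 and 3168 in MM (-2.12 ± 0.44 SE), again with UB replicate 4 nearest to the mesenchyme. Emcn, for endomucin, read 196, 71.5, 188 and 205 against 702, 481 and 627 (-1.72 ± 0.32 SE).

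Mmrn2, an extracellular matrix protein that binds CLEC14A and CD93, had the largest difference of the list. It read 386, 120, 271 and 988 in UB and 3980, 3440 and 5456 in MM, 9.72-fold apart, with a log2 difference of -3.48 ± 0.49 SE (limma adjusted p = 0.000278). Its partners were also lower in UB: Clec14a by -1.47 ± 0.30 SE (158, 245, 331 and 285 against 517, 747 and 1083) and Cd93 by -2.12 ± 0.31 SE (624.9, 539, 543 and 1217 against 2745, 2537 and 4375). Plvap, the protein of the diaphragms of fenestrated vessels, read 303, 346, 582 and 1427 in UB and 1795, 2255 and 2020 in MM, a difference of -1.81 ± 0.42 SE. The adhesion molecule Esam read 449, 493, 545 and 1025 against 1064, 1330 and 1717 (-1.13 ± 0.30 SE). Ecscr, a regulator of migration and apoptosis, read 128, 142, 152 and 414 against 432, 725 and 733 (-1.54 ± 0.36 SE). For all of these genes the arrays did not overlap.

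Icam2, an adhesion molecule that leukocytes bind, and Pecam1, the junctional CD31 antigen, were the exceptions on the surface. Icam2 read 418, 854, 899 and 1430 in UB and 644, 1299 and 1887 in MM, overlapping ranges with a difference of -0.48 ± 0.41 SE (limma adjusted p = 0.436). Pecam1 was dim, at 11.7 to 134 in UB and 126 to 272 in MM, and was not tested.

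All 8 transcription factors of the list were lower in UB. Ets1 had the tightest groups, at 1382, 1422, 1586 and 1763 in UB and 7259, 6846 and 6893 in MM (-2.17 ± 0.19 SE, limma adjusted p = 7.59e-06). Erg read 13.2, 141, 275 and 284 against 392, 883 and 1042 (-2.13 ± 0.58 SE), and Fli1 597, 264, 120 and 206 against 1608, 869 and 1194 (-2.07 ± 0.41 SE). The other probe set of Fli1 differed by -0.86 and did not pass (limma adjusted p = 0.234). The SOX factors differed by -2.91 ± 0.37 SE for Sox17, -2.30 ± 0.45 for Sox18 and -1.58 ± 0.38 for Sox7. Sox17 read 251, 102, 444 and 349 in UB and 2554, 1732 and 2290 in MM, 7.66-fold apart. Sox18 read 154.5, 118, 337 and 689 against 1137, 1598 and 1630, and Sox7 74.3, 50.9, 148 and 201 against 276, 377 and 567. Tal1 and its partner Lmo2 are shared with blood precursors. Tal1 read 84.5, 192, 184 and 310 against 558, 766 and 774 (-1.77 ± 0.33 SE), and Lmo2 312, 185, 307 and 533.5 against 1525, 1291 and 1381 (-2.03 ± 0.30 SE). No UB array reached an MM array in any of the 8.

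Of the secreted and signalling genes, Egfl7 and Nos3 were tested and neither passed. Egfl7, a secreted endothelial protein, read 1888, 2343, 2175 and 3290 in UB and 1039, 2244 and 1742 in hand-dissected MM. Its difference of 0.56 ± 0.29 SE pointed the other way from the list but did not pass (limma adjusted p = 0.189), and its other probe sets differed by -0.47, -0.16 and 0.33. Nos3, endothelial nitric oxide synthase, differed by -0.71 ± 0.31 SE (limma adjusted p = 0.125) with overlapping arrays. Rasip1, a Ras-interacting protein of lumen formation, and Esm1, a secreted proteoglycan of sprouting tips, were dim and not tested, at 30.8 to 154 and 3.2 to 105 in UB and 84.9 to 129 and 4.6 to 13.2 in MM. Esm1 never exceeded its array's median in any of the 16 arrays.

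**Figure D2:**
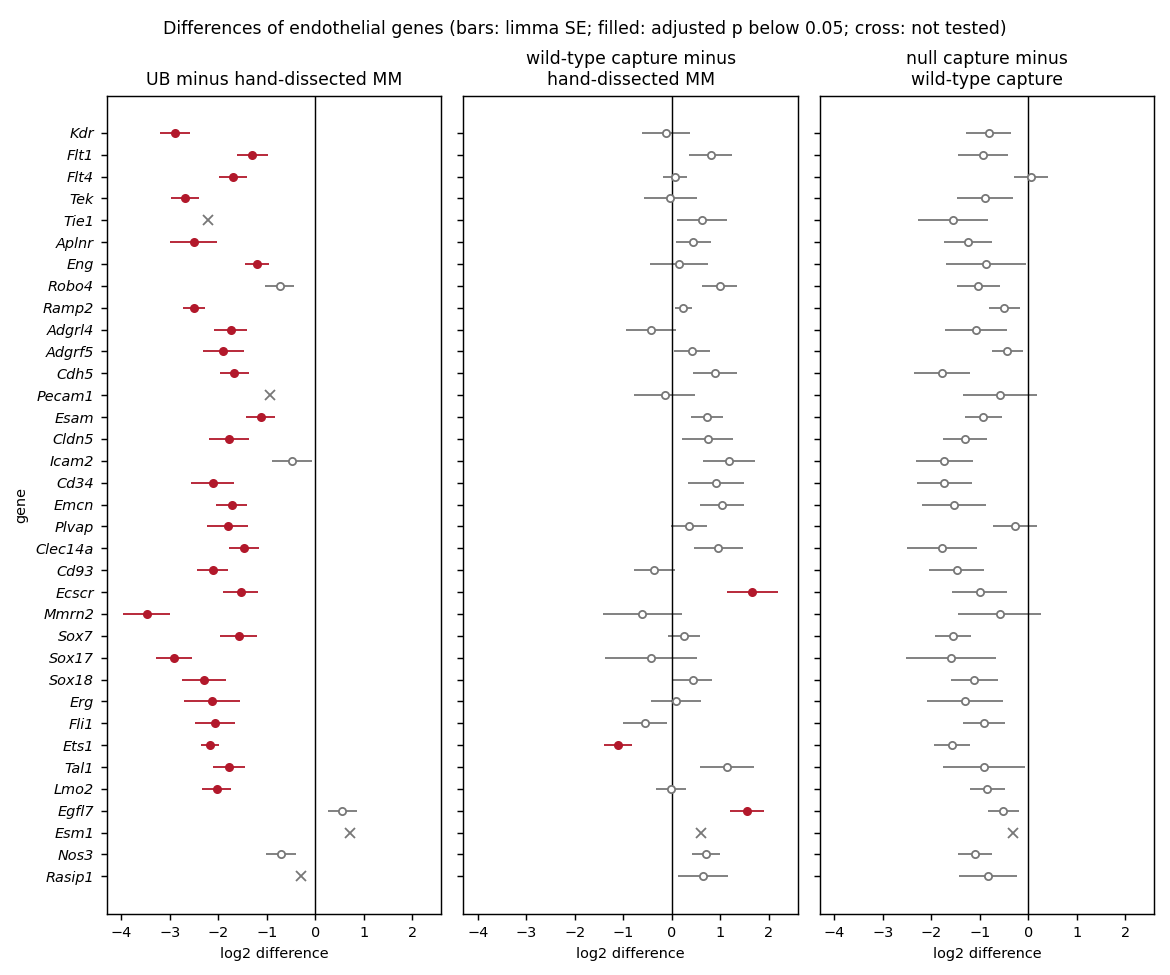
Log2 difference of each endothelial gene (rows) in 3 comparisons (panels), with bars of 1 limma SE; filled points have an adjusted p below 0.05, open points do not, and crosses were not tested. In the first panel 27 genes are filled to the left of 0; in the second Ecscr and Egfl7 are filled to the right and Ets1 to the left; in the third no gene is filled and 34 of 35 lie left of 0.

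The UB arrays were not uniform. UB replicate 4 was the highest UB array for 28 of the 35 genes, above the others by a median log2 difference of 0.94, while 24.7% of genes tested were highest there. In UB, 19 of the 35 genes were above the array's own median in every UB array. Hand-dissected MM replicate 7 was the highest of its 3 arrays for 22 genes, and replicate 5 the lowest for 24. Without replicate 7 of hand-dissected MM, 22 of the 27 genes still passed, where 10.1% of genes tested were lower. In 1 fit over all 16 arrays 17 did, where 9.58% were (limma).

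Captured and hand-dissected MM of the wild type differ in preparation, in pooling and in the bud RNA they hold (Calb1 at 3731 to 27963 against 124 to 172), and these cannot be told apart. Of the 35 endothelial genes, 34 were tested, 2 were higher in the captures and 1 lower (limma, adjusted p under 0.05), where 13.6% of genes tested were higher and 9.88% lower, or 7.31% and 15.8% after median centring. The median difference over the 35 genes was 0.43, against 0.03 over all genes. This comparison shares its hand-dissected arrays with the comparison above and its captures with the one below.

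Egfl7 read 2510, 4973, 5547 and 7241 in the captures, above the hand-dissected 1039, 2244 and 1742. The difference was 1.55 ± 0.35 SE (limma adjusted p = 0.00977), and its other probe sets differed by 1.36 to 1.45 and passed too. Ecscr read 580, 2263, 3366 and 3637 in the captures and 432, 725 and 733 by hand (1.66 ± 0.52 SE, limma adjusted p = 0.0392). Its capture replicate 1 was within the hand-dissected range, and Ecscr kept its call in 5 of 17 alternative settings. Ets1 went the other way, at 1887, 2938, 5197 and 3775 in the captures against 7259, 6846 and 6893 by hand (-1.11 ± 0.29 SE, limma adjusted p = 0.0171). Ets1 is also read by a second bright probe set, which differed by -0.33 and did not pass (limma adjusted p = 0.475).

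Replicate 1 decided how many genes differed. Relative to the hand-dissected mean, the median gene stood at -0.65 in capture 1, 0.52 in capture 2, 1.01 in capture 3 and 1.04 in capture 4. Only 5 of the 35 genes exceeded the hand-dissected mean in capture 1, whereas 30, 34 and 32 did in captures 2, 3 and 4. Sox17 had the lowest value relative to hand-dissected MM, at 107 in capture 1 and 3212, 3370 and 4486 in the others. Mmrn2 read 315 there and 5285, 6065 and 5273 in the others, and Kdr 910 and 4200, 4454 and 4994. Ramp2 differed least in log2 terms, with 8781 there and 9038, 9577 and 10617 in the others.

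Without replicate 1, 14 of the 35 genes were higher in captured than in hand-dissected MM and Ets1 alone was lower (limma, adjusted p under 0.05; 11.1% and 8.12% of genes tested). Arrays did not overlap for 20 of the 34 genes tested, with the captures higher, as for 23.3% of genes tested. The median difference was then 0.79. Ecscr (2.24 ± 0.29 SE), Egfl7 (1.85 ± 0.29), Tal1 (1.77 ± 0.26), Icam2 (1.73 ± 0.34), Cd34 (1.55 ± 0.32) and Emcn (1.52 ± 0.28) had the largest of these. Clec14a, Cdh5, Cldn5, Robo4, Flt1, Rasip1, Esam and Sox17 passed with 0.74 to 1.5. Of these, Rasip1 was below the median of every hand-dissected array and entered the test only through the captures. Sox17 turned its sign, from -0.43 with all 4 captures (limma adjusted p = 0.774) to 0.74 ± 0.24 SE (limma adjusted p = 0.0496). With all 4 captures its other probe set differed by -0.07 (limma adjusted p = 0.922). Kdr and Tek, the VEGF and angiopoietin receptors, did not pass with or without that array.

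**Figure D3:**
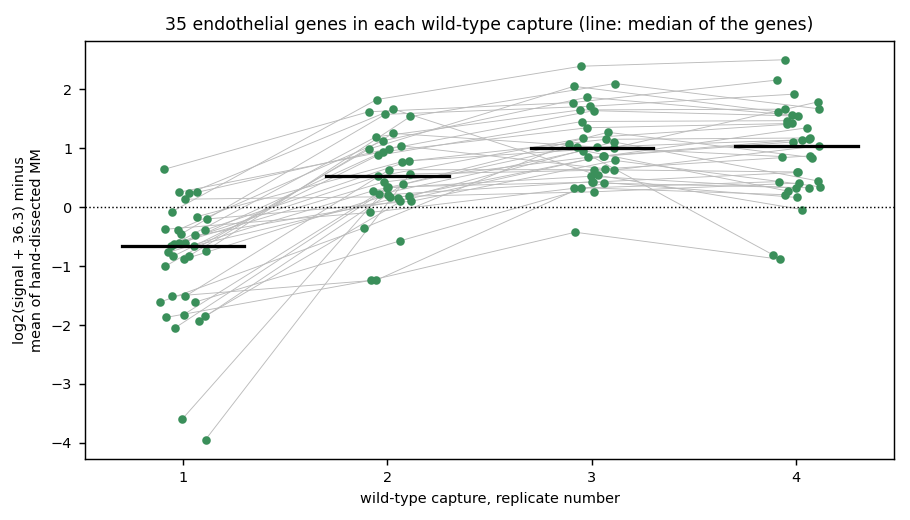
The 35 endothelial genes (points, joined by gene) in each of the 4 wild-type captures, as log2(signal + 36.3) minus the mean of the 3 hand-dissected MM arrays, with the median of the genes as a bar. The medians are -0.65, 0.52, 1.01 and 1.04, and capture 1 has points as low as those of Sox17 and Mmrn2.

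In null against wild-type captured MM, the comparison meant to find possible Hox targets, 0 of the 35 endothelial genes passed, of which 34 were tested (limma, adjusted p under 0.05), where 0.995% of genes tested were lower and 0.748% higher, or 0.123% and 0.674% after median centring. At an unadjusted p under 0.05, 15 of the 35 were lower and 0 higher, where 11.4% of genes tested were lower. Other limma settings called between 0 and 4 of them, the 4 in a fit over all 16 arrays where 4.64% of genes tested were lower. The differences pointed one way: 34 of 35 were below 0, with a median of -1.0 against -0.09 over all genes. The arrays themselves shifted between these groups, the log2 median of a null array being lower by -0.30 on average, and after median centring the median difference of the endothelial genes was -0.70. Null replicate 1 went the other way, with an array median of 209.2 against 162.8 to 182.3 in wild-type captures. The other null arrays had medians of 112.7 to 128.9. Arrays did not overlap for 2 of the 35 genes, Ets1 and Sox7, both with the null lower, as for 5.77% of genes tested; with the null higher it was 0 of 35, against 3.26%.

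Ets1 read 1671, 1029, 873, 572 and 1493 in null captures and 1887, 2938, 5197 and 3775 in wild-type captures. Its means were 1127 ± 451 (SD, n = 5) and 3449 ± 1398 (n = 4), a difference of -1.58 ± 0.37 SE (limma adjusted p = 0.0542), and its second bright probe set gave -1.60 (limma adjusted p = 0.0517). Sox7 read 116, 133, 91.5, 249 and 132 in null captures and 335, 421, 703 and 507 in wild-type captures (-1.55 ± 0.37 SE, limma adjusted p = 0.0601). Both lay just above the threshold. Ets1 passed it in 5 of 20 alternative settings, with adjusted p from 0.00507 to 0.184, and Sox7 in 6 of 19, from 0.0169 to 0.207.

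Among junction and surface genes, Cdh5 read 297, 1425, 490, 1221 and 288 in null captures and 739, 2298, 3617 and 3395 in wild-type captures (-1.78 ± 0.58 SE, limma adjusted p = 0.138). Cd34 read 1005, 2005, 686, 1969 and 1842 against 1210, 4928, 10325 and 7633 (-1.73 ± 0.56 SE, limma adjusted p = 0.135). In both genes wild-type replicate 1 alone fell within the null range. Clec14a (-1.78 ± 0.72 SE), Icam2 (-1.73 ± 0.58), Emcn (-1.53 ± 0.66), Cd93 (-1.48 ± 0.57) and Cldn5 (-1.30 ± 0.45) had differences of similar size with adjusted p from 0.145 to 0.241 (limma). Nos3 differed by -1.1 ± 0.35 SE (limma adjusted p = 0.126).

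Of the other transcription factors, Sox17 read 458, 292, 337, 1846 and 377 in null captures and 107, 3212, 3370 and 4486 in wild-type captures, with null replicate 4 high and wild-type replicate 1 low, a difference of -1.59 ± 0.93 SE. The other probe set of Sox17 differed by -0.17 and did not pass (limma adjusted p = 0.859). Erg (-1.30 ± 0.78 SE), Sox18 (-1.11 ± 0.48), Fli1 (-0.92 ± 0.43), Tal1 (-0.91 ± 0.84) and Lmo2 (-0.85 ± 0.36) had adjusted p from 0.233 to 0.598 (limma). The other probe set of Fli1, which was not tested, differed by 1.15.

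The VEGF and angiopoietin receptors did not pass either. Kdr read 1804, 1334, 1105, 2580 and 2097 in null captures and 910, 4200, 4454 and 4994 in wild-type captures (-0.82 ± 0.47 SE), and Tek differed by -0.90 ± 0.58 and Flt1 by -0.93 ± 0.51 SE. The other probe sets of Flt1 gave -1.91, -1.36 and -1.05. Flt4 was the single gene with a difference above 0, at 0.06 ± 0.35 SE, with null arrays of 1207, 2988, 2367, 939 and 1359 around wild-type arrays of 1130 to 2006. Plvap (-0.28 ± 0.45 SE), Adgrf5 (-0.43 ± 0.31), Ramp2 (-0.50 ± 0.32) and Egfl7 (-0.52 ± 0.32) had differences of at most 0.52 in size. For Egfl7 the other probe sets gave -1.71, -1.22 and -0.86, none of which passed (limma adjusted p from 0.076 to 0.178). The remaining 11 genes, Tie1, Aplnr, Adgrl4, Robo4, Ecscr, Esam, Eng, Rasip1, Mmrn2, Pecam1 and the untested Esm1, differed by -1.56 to -0.31. The other probe sets of Mmrn2 differed by 0.17, -0.87 and -0.47, and none passed. An adjusted p above the threshold does not show that any of these genes was alike in both groups.

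Without wild-type replicate 1, Cd34 and Cldn5 passed (limma adjusted p = 0.0442 and 0.0495), where 0.168% of genes tested were lower. Cd34 was then at 1502 ± 612 (SD, n = 5) against 7629 ± 2699 (n = 3), a log2 difference of -2.37 ± 0.40 SE. Cldn5 was at 1454 ± 464 against 5115 ± 1110, a difference of -1.83 ± 0.32 SE. All 35 differences were below 0, with a median of -1.51, and arrays did not overlap for 18 of the 34 genes tested, with the null lower, as for 8.34% of genes tested, and for 0 with the null higher, against 4.49%. Among the genes that did not pass, Sox17 went from -1.59 to -2.76 ± 0.53 SE (limma adjusted p = 0.0621), with the arrays then apart. These values are from its brighter probe set, and the other differed by -0.17 with all 4 wild-type captures. Kdr went from -0.82 to -1.39 ± 0.30 SE (limma adjusted p = 0.0818), also with the arrays apart. Tek went from -0.90 to -1.51, Eng from -0.87 to -1.56, Mmrn2 from -0.59 to -1.59, Plvap from -0.28 to -0.65, Pecam1 from -0.58 to -1.22, Adgrf5 from -0.43 to -0.73, Egfl7 from -0.52 to -0.82, Tal1 from -0.91 to -1.54, Ecscr from -1.0 to -1.58 and Rasip1 from -0.83 to -1.32. Flt4 turned from 0.06 to -0.09. Without null replicate 1, Ets1 and Sox7 passed, where 3.89% of genes tested were lower, and without null replicate 4, Sox7 did, where 1.18% were (limma).

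Null arrays also varied gene by gene. Null replicate 2 was the highest null array for 17 of the 35 genes and replicate 4 for 11, while replicate 3 was the lowest for 15 and replicate 1 for 10. Tal1 ranged from 182 to 5059 in the null, the latter in replicate 4, which was also the highest null array for the erythroid list. Sox17 was at 1846 in replicate 4 and 292 to 458 in the others. Erg was at 9.8 in replicate 3 and 319 to 647 in the others.

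The genes moved together within groups. After each group's mean was removed, a gene's deviations correlated with the mean of the other 34 genes at a median r of 0.72 over 16 arrays, from 0.26 for Ramp2 to 0.96 for Cd34. Ecscr (0.93), Cldn5 (0.92), Mmrn2 and Icam2 (0.88 each) were closest to the list after Cd34. Ets1 (0.31), Fli1 (0.35), Nos3 (0.36) and Flt4 (0.39) were the loosest after Ramp2. The arrays share their scaling, and these values describe them without a test. All include wild-type capture 1, the lowest of its group for 34 of the 35 genes, and were not computed without it.

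Lists of other cells were read in the same arrays. Mean log2 levels of 11 erythroid genes were 7.42 to 8.81 in UB, 9.81 to 10.2 in hand-dissected MM, 9.60 to 11.73 in wild-type captures and 9.47 to 10.91 in null captures. For 10 of the 11, wild-type capture 1 was the lowest capture, with a median of -1.67 against captures 2 to 4. The 12 pericyte and smooth muscle genes had a median of -0.63 there, and 7 of them were lowest in capture 1. The macrophage list of 18 genes did not follow: capture 1 was the lowest for 4, with a median of 0.15. Its levels were 6.79 to 6.93 in UB, 7.76 to 8.84 in hand-dissected MM, 8.96 to 9.66 in wild-type captures and 7.14 to 9.13 in null captures. Pericyte and smooth muscle genes lay at 7.54 to 7.85, 9.32 to 9.64, 9.58 to 10.54 and 9.00 to 10.79 in the same order, and bud genes at 13.6 to 14.12, 7.71 to 7.90, 9.48 to 11.52 and 9.38 to 11.24. Nephron progenitor genes lay at 7.27 to 7.87 in UB and 11.93 to 11.99 in hand-dissected MM. Renal stroma genes lay at 7.48 to 8.56 and 12.7 to 13.11, and megakaryocyte and blood progenitor genes at 8.14 to 8.60 and 9.03 to 9.35. The median log2 differences of these lists, UB minus hand-dissected MM, were -5.3, -5.62 and -0.59. In UB against hand-dissected MM, 7 of the 11 erythroid, 7 of the 18 macrophage and 6 of the 12 pericyte and smooth muscle genes were lower in UB (limma, adjusted p under 0.05). Of all genes tested, 14.6% were lower. Tyrobp, Mrc1, Fcgr3 and Lyz2 of the macrophage list, and Cspg4 and Tagln of the pericyte list, were below the median of every UB array. They entered the test only through the MM arrays. No signal in these lists was at 0. Deviations of the endothelial level within groups correlated with those of the erythroid level at r = 0.71, the pericyte level at 0.43, the bud level at 0.09, the macrophage level at -0.20 and the nephron progenitor level at -0.57. These correlations include wild-type capture 1 and were not computed without it. The part of these cells in the endothelial differences was not tested.

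**Figure D4:**
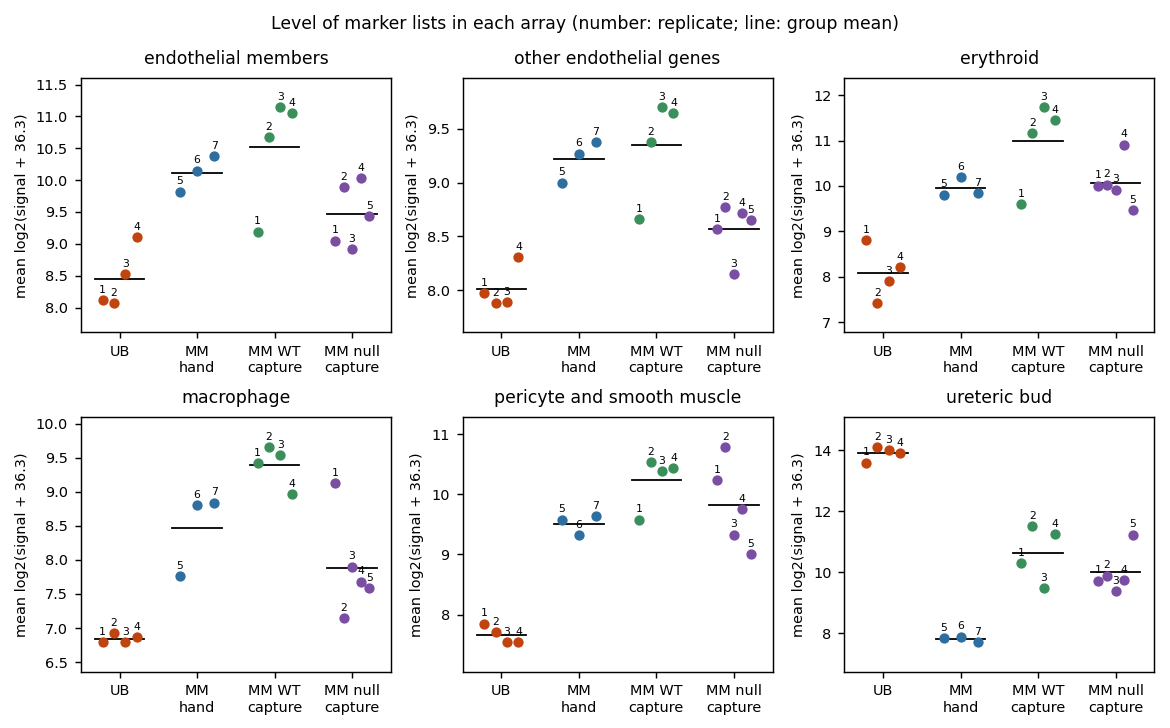
Mean log2(signal + 36.3) of 6 marker lists in each array, by group (points, numbered by replicate; lines, group means). The endothelial, other endothelial and erythroid panels and that of pericytes and smooth muscle share a low wild-type capture 1, at 9.19 in the endothelial and 9.58 in the pericyte panel; in the macrophage panel it is not the lowest capture.

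Other genes of the vascular pathways were read from further lists. Of 38 other endothelial genes, 17 were lower and 2 higher in UB than in hand-dissected MM (limma, adjusted p under 0.05), with a median of -1.22. Of all genes tested, 14.6% were lower and 13.9% higher. The transcription factors Mef2c, at -3.32 ± 0.48 SE, and Nr2f2, the venous regulator COUP-TFII, at -3.29 ± 0.27 SE, led the 17, and both also belong to other mesenchymal cells. Etv2, Vwf and Stab2, also among the 17, were below the median of every UB array and entered the test only through the MM arrays. The 2 that were higher, Tspan18 (1.59 ± 0.32 SE) and Mecom (0.63 ± 0.18 SE), were picked out after their values were seen. Of 24 other receptors and signalling genes, 7 were lower and 3 higher (median -0.17), against the same 14.6% and 13.9% of all genes tested. Calcrl, the receptor that Ramp2 escorts, was at 2.2 to 39.6 in UB, below the median of all 4 UB arrays, and at 810 ± 88.5 (SD, n = 3) in MM. It was called lower, but entered the test only through the MM arrays, and the size of its difference is not well measured.

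The ligands were split. Of 21 vascular ligands, 6 were lower and 4 higher in UB (median -0.28), where 14.6% of genes tested were lower and 13.9% higher. Pgf, placental growth factor, which binds FLT1, was called lower, at 16.7 to 40.0 in UB against a mean of 996 in MM. It too was below the median of every UB array, as was Sema3e, also called lower, at 24.7 to 100.5 in UB. Both entered the test only through the MM arrays. Vegfa itself, the ligand of KDR, was at 1483 ± 334 (SD, n = 4) in UB and 1307 ± 57.2 (n = 3) in MM, a difference of 0.15 ± 0.22 SE that did not pass (limma adjusted p = 0.661). The 4 that were higher, named after their values were seen, were Efnb2 (2.39 ± 0.33 SE), Jag1 (2.18 ± 0.32), Slit2 (1.18 ± 0.21) and the TEK ligand Angpt1 (0.76 ± 0.22). Efnb2 and Jag1 are ligands on arterial endothelium that epithelia also carry.

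In captured against hand-dissected MM, 3 of the 38 other endothelial genes were higher and 1 lower, 4 of the 24 receptors were higher and 1 lower, and 2 of the 21 ligands were higher (limma, adjusted p under 0.05). Of all genes tested 13.6% were higher and 9.88% lower, so these shares are near the background. Stab1, a scavenger receptor of endothelium and macrophages, was higher by 1.87 ± 0.25 SE, Plxnd1, the semaphorin 3E receptor, by 1.66 ± 0.40, the arterial connexin gene Gja4 by 1.56 ± 0.48, and the pericyte receptor gene Pdgfrb by 1.46 ± 0.35. In the same comparison 5 of 11 erythroid, 4 of 18 macrophage and 12 of 13 bud genes were higher. The bud genes Gata3, Cdh1, Cldn3 and Cldn7 were below the median of every hand-dissected array. So were C1qa of the macrophage list and Epb42 of the erythroid list. With or without wild-type replicate 1, all of these entered the test only through the captures. Without wild-type replicate 1, 5 of the other endothelial genes, 6 of the receptors and 2 of the ligands were higher. The lower ones were then 1, 1 and 0. Of the erythroid, macrophage and bud genes, 8, 3 and 12 were then higher. Of all genes tested, 11.1% were then higher and 8.12% lower.

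In null against wild-type captures, 1 of the 38 other endothelial genes was lower and 1 higher, and 0 of the 24 receptors and 0 of the 21 ligands passed (limma, adjusted p under 0.05). Of all genes tested, 0.995% were lower and 0.748% higher. Stab2, a hyaluronan receptor of sinusoidal endothelium, was lower by -1.71 ± 0.36 SE (132 ± 25.1 against 545 ± 244, adjusted p = 0.0424). Hey1, a Notch target that other mesenchymal cells use too, was higher by 1.03 ± 0.22 SE (10866 ± 1400 against 5482 ± 1561, adjusted p = 0.0436). Without wild-type replicate 1 the differences were -1.89 and 0.79 and neither passed, in a fit that called 21 genes lower over all genes in place of 121. Vegfa was at 1447 in null captures and 1548 in wild-type captures, a difference of -0.17 ± 0.35 SE (adjusted p = 0.829). Of the 18 macrophage genes all had differences below 0, with a median of -1.60, and Tyrobp, an adaptor of myeloid receptors, passed (-2.28 ± 0.50 SE, limma adjusted p = 0.0470) but did not without wild-type replicate 1, at -2.32.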

How the data were processed

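Expression was measured on 16 arrays, 1 per sample. The deposited values are linear MAS5 signal intensities, as the submitters' processing notes give them, with no version. The authors' intensities have a mean of 1500 on every array after 2% of values are trimmed at each tail, as read from the values; array medians ran from 112.7 to 209.2. Such scaling takes total expression as equal between samples. Of 45101 probe sets, 64 controls were removed; of the rest 34945 had 1 gene symbol in the platform's annotation, 932 several and 9160 none. The probe set with the highest mean log2 signal stood for each of 18193 genes.

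Signals were taken as log2(signal + 36.3), the offset being the 25th percentile of all values, which understates the change of dim genes. A probe set was kept if it exceeded the array median in a number of arrays no smaller than the size of the smaller group. Each comparison was fitted on its own arrays with limma 3.58.1 in R 4.3.3 (eBayes with trend). P values were adjusted by Benjamini-Hochberg over all kept probe sets, with a threshold of 0.05. The genes tested are those kept probe sets that stand for a gene. All p values are limma's, and the fit was tested on simulated data. Python 3.11.15, pandas 2.3.3, numpy 2.4.6 and matplotlib 3.10.9 handled tables and figures.

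The members, gene lists and tests were chosen with earlier results of these data known, so no p is given for the list as a whole. Every member is named, and members that passed are given by array. Of the other endothelial, receptor and ligand lists together, up to 4 of the largest changes that passed are named per comparison. Further genes named from these lists, or from the lists of other cells, were not picked by this rule. Alternatives covered the offset, a floor, quantile and median scaling, probe set means, the filter, a fit over all arrays, array weights, eBayes without trend, a replicate block and leaving out each array. Same-numbered wild-type and null captures correlated at -0.01, 0.05, -0.06 and 0.06 in their deviations, so numbers were not taken to pair samples. Arrays give no read depth, and their number limits the precision.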

Additional observations from a re-analysis of the deposited data

Results flagged for a closer look

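A value was picked out where the highest or lowest array of a group of 4 or 5 lay farther from the rest, relative to the group's range, than chance allows in about 1 in 20 groups. Of 108 groups checked, 12 held such an array; the 3 hand-dissected mesenchymes were too few to be checked.

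Wild-type capture replicate 1 accounts for 6 of these, each as the lowest array. Kdr read 910 there (others 4200 to 4994), Sox17 107 (3212 to 4486), Mmrn2 315 (5273 to 6065), Icam2 838 (3545 to 4506), Erg 226 (1098 to 1130) and Rasip1 41.3 (243 to 293).

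In UB, replicate 2 was low for Kdr at 240 (others 458 to 520) and for Emcn at 71.5 (188 to 205), and replicate 4 was high for Ecscr at 414 (128 to 152). In the null captures, replicate 4 was high for Sox17 at 1846 (others 292 to 458) and for Esm1 at 87.6 (2.9 to 11.3), a gene below the array median throughout. Null replicate 3 was low for Erg at 9.8 (319 to 647).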

How the results depend on the processing

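In UB against hand-dissected MM the count of 27 lower genes fell to 17 when all 16 arrays shared 1 fit, and ran from 22 to 27 when arrays were left out in turn. Its median difference of -1.77 became -1.37 when all probe sets of a gene were averaged, and ran from -2.0 to -1.58 with arrays left out.

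In null against wild-type captures, where 0 genes passed and 0.995% of all genes tested were lower, 1 passed with the offset at the median of all values (145.4; 1.22% of all genes) and with eBayes without trend (0.526%), 2 with the filter on every array of 1 group (1.52%) and with array weights (3.82%), 4 with all 16 arrays in 1 fit (4.64%), and 0 to 2 with arrays left out (0.112% to 3.89%). With the replicate number as a block 1 passed (Aplnr, limma adjusted p = 0.0413; 0.0905% of all genes), although the numbers were not taken to pair samples. The median of -1.0 ran from -1.51 to -0.79 with arrays left out.

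In captured against hand-dissected MM, where 3 passed, 1 passed with probe sets averaged, 5 with array weights and 1 to 15 with arrays left out; 15 was without wild-type capture replicate 1, and 1 was without hand-dissected replicate 5 or 7. Without capture replicate 1, Sox17 reversed to 0.74, and its difference ran from -0.92 to 0.74 with arrays left out. The median of 0.43 ran from 0.21 to 0.79.

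The mean level moved to 8.97 in UB with the offset at the median, and to 9.44 in hand-dissected MM and 8.95 in null captures with probe sets averaged. A further 39 values changed sign without passing in either setting. Why these values moved was not tested. Giving results without wild-type capture replicate 1, for the endothelial genes and for the other lists, was chosen after the data were seen. Signals near background limit Esm1, Pecam1, Rasip1 and Tie1.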
